A study of Mus musculus with 12 samples.

Results

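Epithelial cells of the untreated colon (Day 0) were compared between *Tfeb* ΔIEC mice and *Tfeb* flox/flox controls. The comparison used genes with at least 5 FPKM (fragments per kilobase of transcript, scaled to the mapped fragments of the library) in either genotype, 4861 of the 47632 genes in the deposited Day 0 table. The 4861 genes were measured in 4 of the 12 animals of the series, 2 per genotype. *Tfeb* ΔIEC mice were homozygous for the floxed *Tfeb* allele and heterozygous for a Cre recombinase driven by the villin promoter, which is active throughout the intestinal epithelium and not in blood or stromal cells. *Tfeb* flox/flox controls, labelled WT, carried the same floxed alleles. Each genotype had 1 animal of 12 weeks and 1 of 10 weeks, all on the C57/BL6 strain, and cells were released from the colon with EDTA. The labels list 2.5% dextran sulfate sodium (DSS) as the treatment of every sample of the series, and the study's methods name a slightly lower concentration. Day 0 was taken as untreated from the time label. The preparations held from 1500000 to 3200000 cells.

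TFEB is a basic helix-loop-helix transcription factor of the MiT/TFE family, together with TFE3, MITF and TFEC. Under nutrient sufficiency it is phosphorylated by mTORC1 at the lysosome and held in the cytoplasm, and after starvation, infection or lysosomal stress it moves to the nucleus. There it binds a short palindromic E-box motif near the start sites of genes for lysosomal hydrolases, lysosomal membrane proteins, the proton pump (V-ATPase) and autophagy. In the gut, the epithelium is built by absorptive colonocytes, mucus-secreting goblet cells and rarer enteroendocrine and tuft cells.

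Each genotype was represented by 1 FPKM value per gene, made by Cuffdiff from both animals, so no difference below has a replicate check, an error or a p-value. Differences are given as log2((ΔIEC FPKM + 1) / (flox/flox FPKM + 1)), negative where *Tfeb* ΔIEC was lower, and a gene is called lower or higher when this value passed 2-fold. The pseudocount of 1 understates the change of low genes. Read counts are not in the table, so the depth behind each value, and with it the counting error, is unknown. The FPKM values summed to 975316 in controls and 973878 in *Tfeb* ΔIEC, and the median over the genes used was 11.6 and 11.4. A single immunoglobulin joining segment of 39 nt, *Igkj2*, held 19.2% of the *Tfeb* ΔIEC sum and was listed at 0 in *Tfeb* flox/flox. A deposited locus was shared with another gene for 2285 of the genes used, and reads of such genes may be split between neighbours. Sex-linked genes differed between the pools: *Xist*, the RNA that coats the inactive X chromosome, was at 1.38 in *Tfeb* flox/flox against 8.57 in *Tfeb* ΔIEC, and the Y-linked *Eif2s3y* was at 1.16 and listed at 0. The part of sex in the differences below was not tested. The threshold of 5 FPKM passed *Psmd9* at 5.01 in *Tfeb* ΔIEC and *Set* at 5.01 in *Tfeb* flox/flox, and left out *Itga6* at 4.997 and *Srsf4* at 4.99 in *Tfeb* ΔIEC.

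Over all 4861 genes, 3411 (70.2%) lay within 2-fold between the genotypes. In *Tfeb* ΔIEC, 894 genes were lower past 2-fold (18.4% of the genes used) and 556 were higher (11.4%). Past 4-fold, 242 were lower and 138 higher. The filter took the higher of both genotypes, so 385 of the higher genes entered only through *Tfeb* ΔIEC and 427 of the lower genes only through *Tfeb* flox/flox, each through the genotype where it was high. The median difference was -0.036, with quartiles of -0.75 and 0.56. A value of 0 in *Tfeb* ΔIEC accounted for 159 of the lower genes, whose control FPKM had a median of 10.2, and 60 of the genes called higher were listed at 0 in *Tfeb* flox/flox. Genes that most cells express, such as the thioredoxin reductase *Txnrd1*, were also listed at 0, in both genotypes, so a 0 may be a failed estimate, and no fold is given against one.

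*Tfeb* itself (ENSMUSG00000023990.18, chr17:47737030-47792419 of mm10, plus strand) was weakly expressed, at 0.901 FPKM in controls and 0.185 in *Tfeb* ΔIEC. The value covers the gene as a whole and does not resolve the floxed stretch. *Tfe3*, a close relative with overlapping targets, was at 4.32 in *Tfeb* flox/flox against 1.90 in *Tfeb* ΔIEC. Both were under the threshold in both genotypes and enter no count. *Mitf* and *Tfec* were listed at 0 in both. Of the 29 genes listed for the control of these factors (mTORC1, the Rag GTPases and Ragulator, calcineurin and the binding proteins that hold TFEB in the cytoplasm), 10 were used. Their median difference was -0.0023, and only *Ppp3r1*, the regulatory subunit of calcineurin, passed 2-fold (10%, beside 11.4% of all genes higher). *Ppp3r1* was at 2.11 in *Tfeb* flox/flox against 7.34 in *Tfeb* ΔIEC and passed the filter only through *Tfeb* ΔIEC. Beside genes of like length (a comparison described below) its difference was 0.97, within 2-fold. The Ragulator subunit *Lamtor2* was at 113 against 56.5 and the lysosomal calcium channel *Mcoln1* at 11.7 against 9.34.

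Reference promoter sequences show which lysosomal and autophagy genes carry the TFEB motif. RefSeq promoters (GRCm38.p6, from 250 bases before to 50 bases after a start site) were found for 118 of the 149 lysosomal, V-ATPase and autophagy genes listed. The core CACGTG stood in the promoters of 32 of them, and the 8-base palindrome TCACGTGA, which holds that core, in 17. Both motifs read the same on either strand. Over all 32851 promoters of the table, 7.15% held CACGTG and 0.974% TCACGTGA. These shares count promoters and not genes, so they cannot be set against the gene counts. By gene, 400 protein-coding genes used held CACGTG and 2767 with a matched promoter did not. For TCACGTGA these numbers were 85 and 3082. The stretches below, up to 60 bases long and ending before the start site, are those around TCACGTGA for 6 of these genes, chosen to span the lists, and capitals mark the palindrome. They belong to a serine carboxypeptidase (*Ctsa*), an aspartyl protease (*Ctsd*), a membrane protein mutated in Batten disease (*Cln3*), a lysosomal phosphoinositide phosphatase (*Tmem55b*, named *Pip4p1* in RefSeq), the catalytic subunit A of the proton pump (*Atp6v1a*) and a subunit of the membrane tethering complexes (*Vps33a*). The start sites are those of RefSeq. In the GENCODE annotation the stretches of *Ctsa*, *Ctsd*, *Cln3* and *Atp6v1a* lie within the gene, and that of *Vps33a* does in part.
Ctsa (chr2:164833730-164833772, plus strand): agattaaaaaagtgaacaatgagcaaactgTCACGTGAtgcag
Ctsd (chr7:142387897-142387956, minus strand): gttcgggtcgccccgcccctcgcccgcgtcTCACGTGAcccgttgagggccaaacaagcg
Cln3 (chr7:126583329-126583388, minus strand): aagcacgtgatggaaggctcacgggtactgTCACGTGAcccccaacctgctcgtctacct
Tmem55b (chr14:50930875-50930934, minus strand): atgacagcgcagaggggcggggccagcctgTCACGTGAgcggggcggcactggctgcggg
Atp6v1a (chr16:44139362-44139421, minus strand): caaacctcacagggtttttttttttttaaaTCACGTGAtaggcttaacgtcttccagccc
Vps33a (chr5:123573016-123573074, minus strand): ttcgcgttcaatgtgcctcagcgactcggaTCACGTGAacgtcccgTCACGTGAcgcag

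Of the genes with TCACGTGA, 10 were used, and they did not share a direction, with 4 higher and 2 lower past 2-fold (beside 11.4% and 18.4% of all genes). All the higher ones, and *Tmem55b* among the lower, passed the 5 FPKM filter only through the genotype where they were high, so the counts support no statement on motif genes. *Ctsa* was at 28.9 in *Tfeb* flox/flox against 38.5 in *Tfeb* ΔIEC and *Ctsd* at 73.8 against 87.1, both within 2-fold. *Cln3* was at 4.02 against 13.3, *Atp6v1a* at 3.17 against 10.1 and *Vps33a* at 2.91 against 7.68, each higher in *Tfeb* ΔIEC past 2-fold, as was the chloride exchanger *Clcn7*. *Tmem55b* was lower at 10.6 against 4.11, as was the V-ATPase membrane subunit *Atp6v0e*. The levels of *Clcn7* and *Atp6v0e* are given with their lists.

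The differences followed transcript length. Genes called lower had a median transcript of 624 nt, genes called higher 2697 nt, and all genes used 1646 nt. Among the 4787 genes of at least 200 nt, the shortest of 10 length classes (203 to 483 nt) had a median difference of -1.18 and the ninth (2991 to 4002 nt) of 0.54. In the shortest class 58.2% of the genes were lower past 2-fold and 10.2% higher. In the longest class (over 4002 nt) the order was turned, with 8.77% lower and 24.8% higher. Across genes the Spearman correlation of the difference with length was 0.48, and with the GC content of the transcripts it was -0.15. These are correlations over genes of the same pooled libraries, and genes are not independent replicates. Processed pseudogenes, 736 of the genes used and short as a class, had a median of -0.63, against 0.060 for 3940 protein-coding genes.

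To describe genes beside others of like length, the running median over the 150 genes on either side in length was subtracted (the length-adjusted difference). After this, 561 of the 4787 genes were lower past 2-fold (11.7%) and 464 higher (9.69%), and the quartiles drew in to -0.48 and 0.46. Of the 849 genes of at least 200 nt that were lower as deposited, 421 were also lower after adjustment, and of 539 higher genes 330 were. The adjustment subtracts any change that short or long genes share, whatever its source, so the values as deposited are given beside it.

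**Figure D1:**
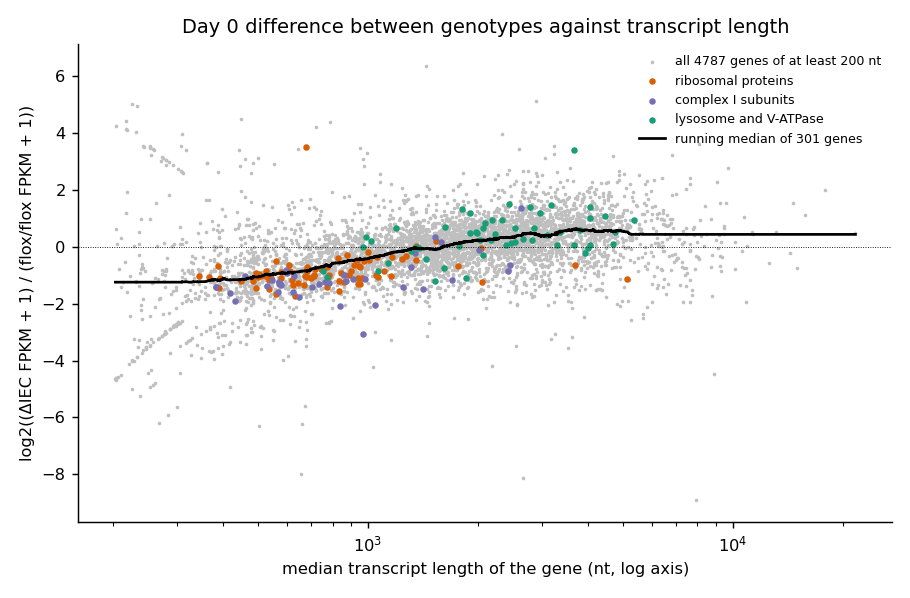
Each point is a gene on Day 0, placed by its median transcript length (nt, log axis) and by the log2 difference of *Tfeb* ΔIEC minus *Tfeb* flox/flox on log2(FPKM + 1), with 1 pooled value per genotype. The black running median climbs from about the median of -1.18 in the shortest class to 0.54 in the ninth; ribosomal proteins and complex I subunits sit at the short end, and V-ATPase genes are spread around their median of 1811 nt.

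The lysosomal hydrolases, the acid enzymes that degrade proteins, lipids and glycans, had a median above 0 as deposited that came close to that of all genes after length adjustment. Of 48 listed, 25 were used, and 4 were higher and 1 lower past 2-fold (16% and 4%, beside 11.4% and 18.4% of all genes). Of the higher genes 2 (*Lipa* and *Manba*) passed the filter only through *Tfeb* ΔIEC, where they were high. The median difference of the list was 0.41 as deposited and 0.023 after length adjustment, against -0.036 and -0.0011 over all genes, and 11 of the 25 lay below 0 after adjustment. Among the higher genes were the acid ceramidase *Asah1* at 11.3 in *Tfeb* flox/flox against 31.5 in *Tfeb* ΔIEC, the acid lipase *Lipa* at 4.03 against 10.6 and the β-mannosidase *Manba* at 0.119 against 10.9. *Manba* (length-adjusted difference 2.79) was also past 2-fold beside genes of like length, and *Asah1* (0.92) was not. *Gla*, the α-galactosidase lost in Fabry disease, was under the threshold at 4.03 against 0.124. The cathepsins were close between genotypes: *Ctsb* was at 31.6 against 46, *Ctss* at 60.3 against 59.9 and *Ctsl* at 10.9 against 11.4. *Ctsh* lay the other way at 28.5 against 16.6, within 2-fold.

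Lysosomal membrane proteins gave a like picture. Of 16 used, 4 were higher (*Cln3*, the sialic acid exporter *Slc17a5* at 2.25 against 8.09, the chloride exchanger *Clcn7* at 3.82 against 8.72 and the cobalamin exporter *Lmbrd1* at 3.44 against 8.49) and 1 was lower (*Tmem55b*), or 25% and 6.25%, beside 11.4% and 18.4% of all genes. All of them passed the 5 FPKM filter only through the genotype where they were high, so the counts support no statement on the list. After adjustment *Cln3* (1.19), *Slc17a5* (1.08) and *Tmem55b* (-1.09) were past 2-fold. The median was 0.28 as deposited and 0.049 after adjustment. The defining glycoproteins of the lysosomal membrane were at 9.41 against 13.3 for *Lamp1* and 10.6 against 21.5 for *Lamp2*. The tetraspanin *Cd63*, the highest member, was at 343 against 189, within 2-fold on this scale.

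The V-ATPase, which acidifies the lysosome, was measured almost completely, with 15 of 17 subunits used. Its median was 0.25 as deposited and 0.44 after adjustment, with no subunit lower past 2-fold after adjustment. *Atp6v1a* and *Atp6v1h* (7.10 against 19.3) of the catalytic sector were higher past 2-fold (13.3% of the subunits used, beside 11.4% of all genes). Their length-adjusted differences were 0.85, within 2-fold, and 1.17. The membrane subunit *Atp6v0e*, with a short transcript of 772 nt, was lower at 66.7 against 31.7, and its length-adjusted difference was -0.40.

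Of 56 autophagy genes, 21 were used. None was lower and 3 were higher past 2-fold: *Vps39* (0.398 against 5.58) and *Vps33a*, subunits of the HOPS complex that joins autophagosomes to lysosomes, and the receptor-like *Calcoco1* (3.55 against 8.40). That is 14.3%, beside 11.4% of all genes, of which 18.4% were lower. All 3 passed the filter only through *Tfeb* ΔIEC, where they were high, and only *Vps39* was past 2-fold after adjustment (1.68). The median was 0.18 as deposited and -0.12 after adjustment. The cargo receptor *Sqstm1* was at 69.7 against 68.2. The ubiquitin-like proteins that coat the autophagosome were at 163 against 131 for *Gabarap* and 19.1 against 21.8 for *Map1lc3b*, whose deposited locus holds 188 genes. Several initiators lay under the threshold, among them *Ulk1* at 1.06 against 0.536 and *Uvrag* at 3.32 against 0.526.

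Taken over the lysosomal, V-ATPase and autophagy lists, 77 genes were used. Of these, 3 (3.90%) were lower and 13 (16.9%) higher past 2-fold, beside 18.4% and 11.4% of all genes. Of the higher genes 10 passed the 5 FPKM filter only through *Tfeb* ΔIEC, where they were high, so their number supports no statement on the lists. After length adjustment 2 were lower and 6 higher (2.60% and 7.79%, beside 11.7% and 9.69%), and their median was 0.0085. Genes with the E-box in their promoter were set beside those without it. Promoters were matched for 3167 of 3940 protein-coding genes used (80.4%). The 400 genes with CACGTG had a median difference of 0.14, against 0.036 for the 2767 without it. After length adjustment the medians were -0.033 and -0.038. For TCACGTGA, 85 genes had a length-adjusted median of -0.035, against -0.035 for the 3082 others. After adjustment 7 of the 85 were lower and 7 higher past 2-fold (8.24% each), beside 10.8% and 7.07% of the others. A motif in these windows describes the sequence and does not show that TFEB is bound there.

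**Figure D2:**
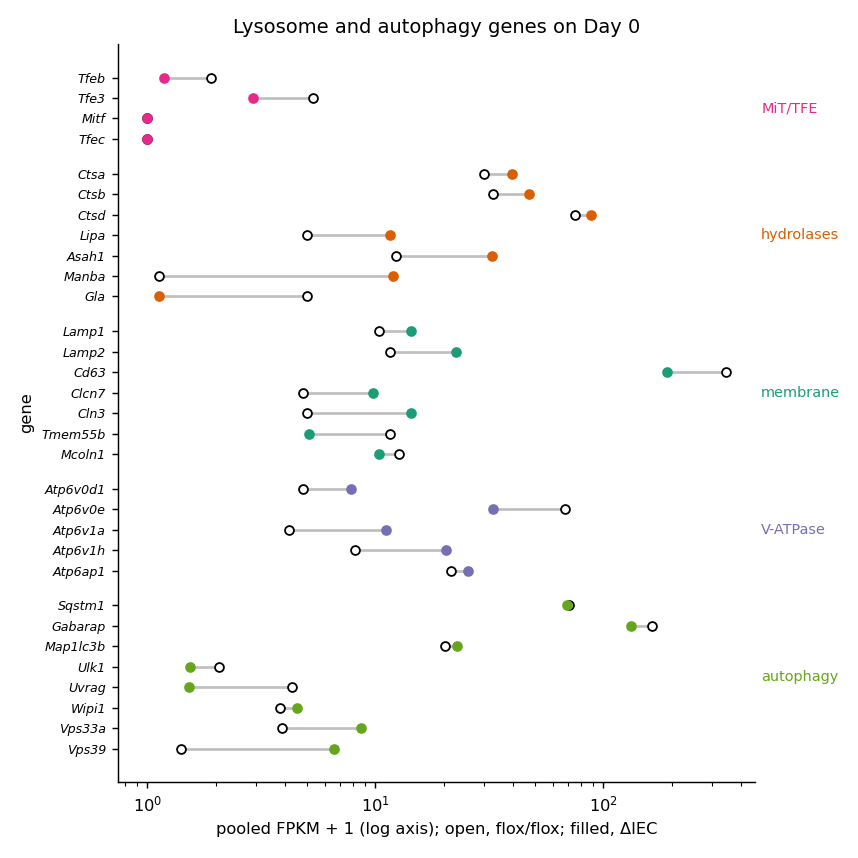
Pooled FPKM + 1 (log axis) of MiT/TFE, lysosomal and autophagy genes on Day 0, open circles for *Tfeb* flox/flox and filled circles for *Tfeb* ΔIEC, 1 value per genotype and no error. *Tfeb* was at 0.901 against 0.185, and filled circles stand to the right of open ones for *Asah1* (11.3 against 31.5) and *Manba* (0.119 against 10.9) and to the left for *Tmem55b* (10.6 against 4.11).

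Among the gene lists with at least 9 genes used, the lowest medians as deposited in *Tfeb* ΔIEC were those of the nuclear-encoded respiratory chain and of the cytoplasmic ribosome, all with short transcripts. After length adjustment the interferon-response genes had the lowest median (-0.94), followed by complex I. Complex I, which oxidizes NADH, had 26 of 37 nuclear-encoded subunits lower past 2-fold (70.3%, beside 18.4% of all genes). In the length class of 745 to 1029 nt 22.8% of the genes were lower, and in the shortest class 58.2%. Complex I had a median of -1.24 and a median transcript of 782 nt. After length adjustment 7 were lower (18.9%, beside 11.7% of all genes), and the median was -0.57. Among these were *Ndufs3* at 47.2 in *Tfeb* flox/flox against 10.6 in *Tfeb* ΔIEC and *Ndufa12* at 85 against 19.5, with length-adjusted differences of -1.70 and -1.50. *Ndufs1*, the largest subunit and encoded by a transcript of 2626 nt, was higher at 22.7 against 59.8. *Ndufb4* was listed at 0 in *Tfeb* ΔIEC, with 7.40 in controls.

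Complexes II to V had 22 of 41 genes lower past 2-fold (53.7%, beside 18.4% of all genes) and a median of -1.12. After adjustment the median was -0.40, with 5 genes lower (12.2%, near the 11.7% of all genes). The cytochrome c oxidase subunit *Cox5b* was at 1452 against 438 and the ATP synthase subunit *Atp5g1* at 612 against 245. *Sdha*, the flavoprotein of complex II with a transcript of 2900 nt, was higher at 88.3 against 179.9. The 13 protein-coding and 2 ribosomal RNA genes of the mitochondrial genome, which are transcribed in the mitochondrion itself, had a median of 0.21 and 0.49 after adjustment. *mt-Co1* was at 22578 against 26136, *mt-Cytb* at 11914 against 14293 and *mt-Nd1* at 19164 against 25538, each somewhat higher in *Tfeb* ΔIEC. Others lay the opposite way, with *mt-Co2* at 15.6 against 7.02, past 2-fold, and *mt-Co3* at 87.5 against 52.1. Past 2-fold 3 of 15 were lower (20%, beside 18.4% of all genes) and none higher as deposited. The short *mt-Nd3* and *mt-Nd4l* were listed at 0 there, at 14.1 and 5.83 in controls.

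Cytoplasmic ribosomal proteins showed 23 of 48 genes of the large subunit and 17 of 32 of the small subunit lower past 2-fold. That is 47.9% and 53.1%, beside 18.4% of all genes, and the medians were -0.99 and -1.01. Beside genes of like length, 2 and 2 were lower (4.17% and 6.25%, below the 11.7% of all genes), and the medians were -0.21 and -0.26. *Rps14* was at 2222 against 876 and *Rplp1* at 1853 against 897, and their length-adjusted differences were -0.49 and 0.018. *Rpl24* went against the rest, at 0.0187 against 10.7, in a deposited locus that holds 5 genes. Ribosomal protein genes have many near-identical processed pseudogenes, so their values are uncertain. Mitochondrial ribosomal proteins (69 used) had a median of -0.57 as deposited and -0.21 after adjustment, with 13 and 8 genes lower. These shares, 18.8% and 11.6%, were near those of all genes (18.4% and 11.7%).

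**Figure D3:**
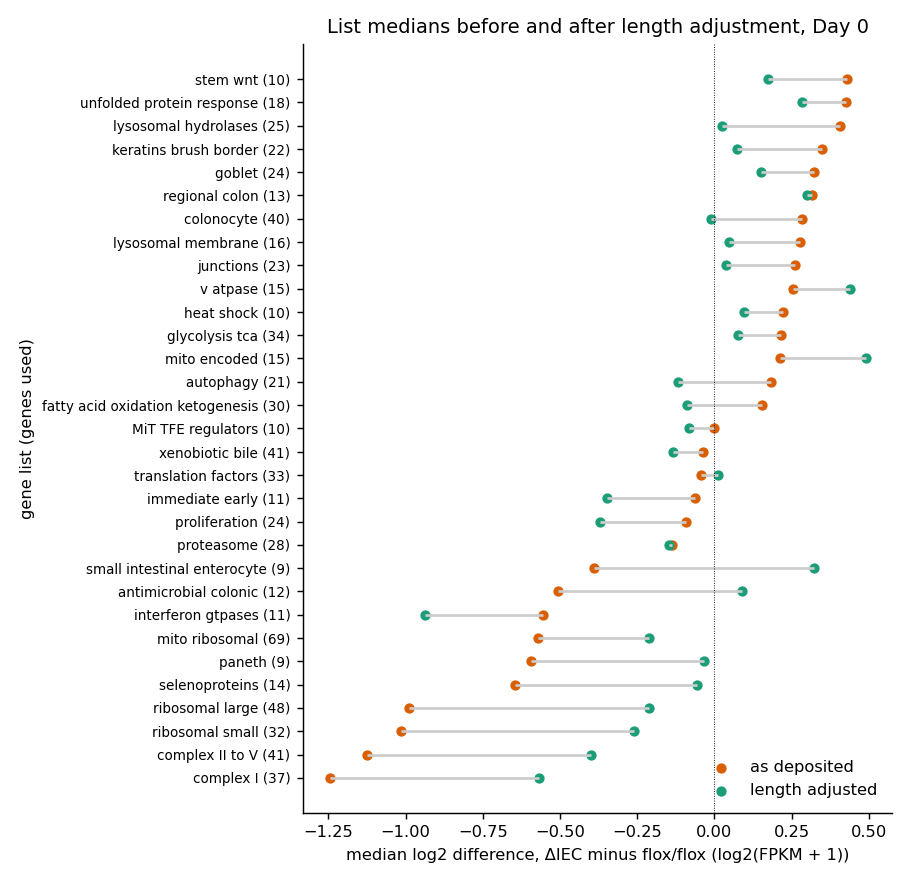
Median log2 difference (*Tfeb* ΔIEC minus *Tfeb* flox/flox on log2(FPKM + 1)) of each gene list with at least 9 genes used, in orange as deposited and in green after length adjustment, with the number of genes used in parentheses. Complex I moved from -1.24 to -0.57 and the lysosomal hydrolases from 0.41 to 0.023.

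The preparations carried an epithelial profile in both genotypes. *Epcam* was at 1109 in *Tfeb* flox/flox against 1348 in *Tfeb* ΔIEC, the brush border protein *Vil1* at 85.4 against 123 and the intestinal transcription factor *Cdx2* at 14.8 against 20.4. Markers of other cells were low. The summed FPKM of 42 immune genes was 51.1 in controls and 23.4 in *Tfeb* ΔIEC, with the pan-leukocyte *Ptprc* at 0.373 against 0.328. Stromal genes (31) summed to 5.83 and 9.64, with 16 listed at 0 in both. Globin genes, a mark of red blood cells, were lower past 2-fold in *Tfeb* ΔIEC for all 4 used, with *Hbb-bs* at 45.5 against 7.56. That is 100%, beside 18.4% of all genes and 44.2% of the length class of 483 to 744 nt, which holds their median transcript. After adjustment 3 were lower (75%, beside 11.7% of all genes). *Hbb-bt* (12.5 against 1.61) passed the filter only through *Tfeb* flox/flox, where it was high. In such bulk preparations fewer cells of a type and less RNA per cell cannot be told apart.

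Colonocyte genes differed in both directions. Of 51 listed, 40 were used, 5 lower (12.5%, beside 18.4% of all genes) and 7 higher (17.5%, beside 11.4%) past 2-fold, with a median of 0.28 and -0.012 after adjustment. The water channel *Aqp8* was lower at 198 in *Tfeb* flox/flox against 30.1 in *Tfeb* ΔIEC, and the surface carbonic anhydrase *Car4* at 269 against 91.9. The cell cycle inhibitor *Cdkn1a* (207 against 75.5) and the acute-phase protein *Saa1* (205 against 46) were also lower. All 4 were lower past 2-fold after adjustment too, at -2.61, -1.40, -1.36 and -1.24. After adjustment 10% were lower and 15% higher, beside 11.7% and 9.69% of all genes. Among the higher genes the sulfate transporter *Slc26a2* was at 54.9 against 189, the butyrate transporters *Slc16a1* at 7.85 against 26.5 and *Slc5a8* at 7.92 against 26.5. Their length-adjusted differences were 1.33, 1.08 and 1.18. The adhesion protein *Cdh17* was higher at 37.6 against 97.6 but within 2-fold of genes of like length (0.82). The most abundant colonocyte gene, the carbonic anhydrase *Car1*, was at 28996 against 22335 and the chloride exchanger *Slc26a3* at 85.8 against 112, both within 2-fold.

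Goblet cell genes had a median of 0.32 over 24 used and 0.15 after adjustment. The mucin *Muc2* was higher at 1034 in *Tfeb* flox/flox against 2744 in *Tfeb* ΔIEC, with annotated transcripts of at most 2032 nt, so its length class does not reflect a full-length mRNA. The goblet cell transcription factor *Spdef* was higher at 9.10 against 22.9 and *Atoh1*, which starts secretory differentiation, was at 20 against 30.4. *Capn9*, a calpain of the digestive tract, was at 0.972 against 29.7. The trefoil peptide *Tff3* was lower at 3909 against 1277, but with a transcript of 493 nt its length-adjusted difference was -0.55. The like held for *Guca2a* (guanylin, 11946 against 4379, adjusted -0.51) and *Retnlb* (1133 against 528, adjusted -0.31). *Fcgbp*, a mucus protein that cross-links with *Muc2*, was at 484 in *Tfeb* flox/flox and listed at 0 in *Tfeb* ΔIEC. It was the only gene of the table for which Cuffdiff recorded a failed computation on Day 0, so the 0 cannot be read as absence.

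Enteroendocrine genes were low, with 4 of 34 used and none past 2-fold. The granule protein *Chga* was at 13.5 against 14.6, *Pyy* at 20.9 against 12.9 and *Gcg*, the source of glucagon-like peptides, at 19.4 against 25.4. All 20 tuft cell genes were under 5 FPKM, and their sum was 12.6 in controls and 2.36 in *Tfeb* ΔIEC. The kinase *Dclk1* was at 2.75 against 0.180 and the channel *Trpm5* at 1.86 against 0.330, and the actin-binding *Avil* was at 3.58 and listed at 0. Of the 20, 12 had the higher value in controls, 3 in *Tfeb* ΔIEC, and 5 were listed at 0 in both. Those higher in *Tfeb* ΔIEC included *Pou2f3* (listed at 0 against 0.232) and *Sh2d6* (listed at 0 against 0.803).

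Genes typical of the small intestine and of Paneth cells differed in both directions. Of 35 genes of small-intestinal enterocytes, 12 had the higher value in controls, 12 in *Tfeb* ΔIEC, and 11 were listed at 0 in both. Of 24 Paneth cell genes these numbers were 10, 2 and 12. Both counts include genes under 5 FPKM. Of 9 Paneth cell genes used, 4 were lower and 1 higher past 2-fold (44.4% and 11.1%, beside 18.4% and 11.4% of all genes). All of these passed the filter only through the genotype where they were high, so the counts support no statement on the list. *Apoa1*, the main protein of high-density lipoprotein (chr9:46228580-46230466, plus strand), was at 17.7 in *Tfeb* flox/flox and listed at 0 in *Tfeb* ΔIEC. The RefSeq sequence of the 250 bases before its start site, shown because *Apoa1* was listed at 0 in one genotype, holds neither CACGTG nor TCACGTGA. The RefSeq start site lies within the gene as annotated in GENCODE, so the last bases of the stretch overlap that gene:
Apoa1 (chr9:46228380-46228629, plus strand): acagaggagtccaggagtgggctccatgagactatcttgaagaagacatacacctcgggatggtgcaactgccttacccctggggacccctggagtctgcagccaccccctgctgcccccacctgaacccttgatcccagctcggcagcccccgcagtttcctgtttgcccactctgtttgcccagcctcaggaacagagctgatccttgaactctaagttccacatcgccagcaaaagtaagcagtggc
The neighbouring *Apoa4* and *Apoc3* were listed at 0 in both genotypes. Of the apolipoprotein and cholesterol export list 4 of 29 genes were used, and only *Apoa1* passed 2-fold. The bile acid binding *Fabp6* was lower at 18.8 against 1.74 and the fatty acid binding *Fabp2* at 1882 against 891. The glucose transporter *Slc5a1* was higher at 5.48 against 18.7. Among Paneth cell genes the α defensins *Defa24* and *Defa17* were at 29.6 and 7.63 in *Tfeb* flox/flox and listed at 0 in *Tfeb* ΔIEC, and α defensin genes are near copies of each other. The defining *Lyz1* was at 1.97 against 0.385 and *Mmp7* was listed at 0 in both. *Pla2g2a*, a secreted phospholipase that carries an inactivating mutation in C57BL/6 mice, was higher at 4.27 against 111. *Ang4* (818 against 593) was within 2-fold.

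**Figure D4:**
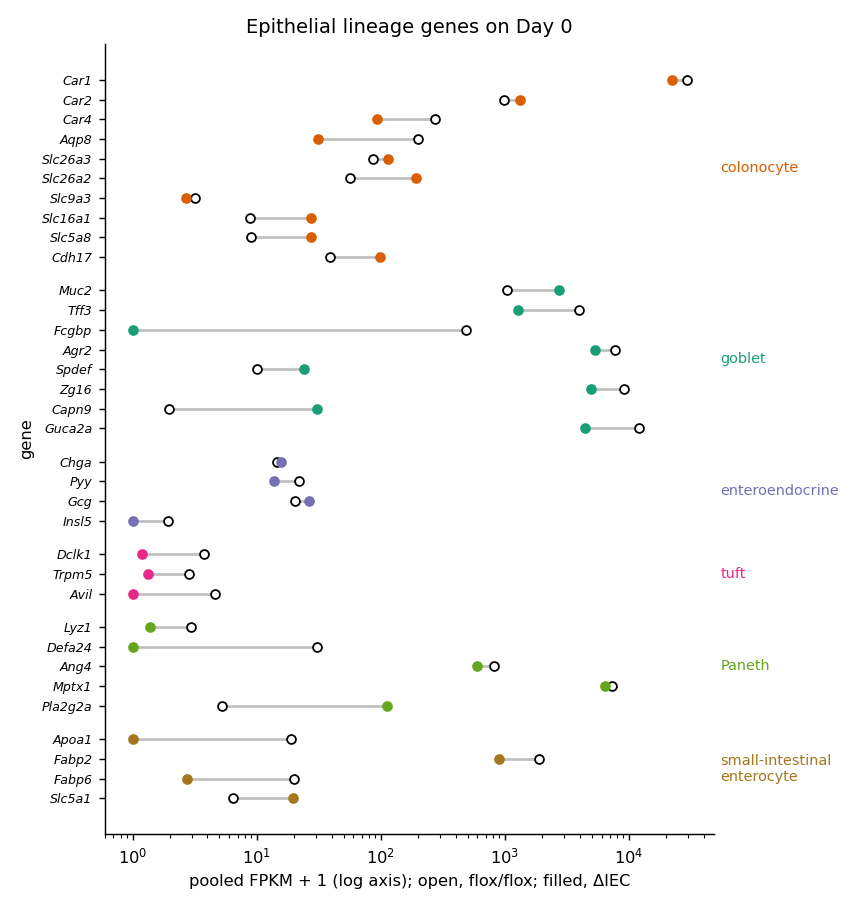
Pooled FPKM + 1 (log axis) of epithelial lineage genes on Day 0, open circles for *Tfeb* flox/flox and filled circles for *Tfeb* ΔIEC, 1 value per genotype and no error. *Aqp8* (198 against 30.1) and *Car4* (269 against 91.9) were lower and *Slc26a2* (54.9 against 189) and *Muc2* (1034 against 2744) higher in *Tfeb* ΔIEC; filled circles at 1 are genes listed at 0.

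Genes with an axial pattern along the colon bear on which stretch of the organ was sampled. The tight junction protein *Cldn8* was higher at 4.43 in *Tfeb* flox/flox against 19.6 in *Tfeb* ΔIEC, and the distal transcription factor *Hoxb13* was at 12.7 against 22.8. The water channel *Aqp4* was at 12.4 against 24.2. Of the list of 23 such genes 13 were used, 2 lower (*Aqp8*, *Car4*; 15.4%, beside 18.4% of all genes) and 3 higher (23.1%, beside 11.4%) past 2-fold. Of the higher genes 2 passed the filter only through *Tfeb* ΔIEC, where they were high. The part of the sampled region in the colonocyte differences was not tested.

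Secreted antimicrobial proteins included some of the most abundant transcripts. *Lypd8*, which keeps flagellated bacteria off the epithelium, was at 15135 in *Tfeb* flox/flox against 6715 in *Tfeb* ΔIEC. *Reg3b* and *Reg3g*, antibacterial lectins of the mucus layer, were at 359 against 427 and 254 against 265. The IgA transporter *Pigr* was at 893 against 1558. Of 12 genes used, 3 were lower (25%, beside 18.4% of all genes) and 1 higher past 2-fold (8.33%, beside 11.4%). The higher gene, the chemokine *Ccl28* (3.95 against 9.69), passed the filter only through *Tfeb* ΔIEC, where it was high. After length adjustment 1 was lower (*Saa1*; 8.33%, beside 11.7%) and none higher.

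Genes of antigen presentation and of the interferon response included members lower and none higher past 2-fold in *Tfeb* ΔIEC. The MHC class II genes *H2-Aa* and *H2-Ab1* were at 9.23 in *Tfeb* flox/flox against 1.52 in *Tfeb* ΔIEC and 14 against 4.26, and their chaperone *Cd74* at 34.7 against 18.8. All 3 used lay below 0. *H2-Aa* and *H2-Ab1*, both past 2-fold before and after adjustment, passed the filter only through *Tfeb* flox/flox, where they were high. Of 11 interferon-response genes used, 3 were lower as deposited and 5 after adjustment, none was higher, and the medians were -0.56 and -0.94. Of the lower genes 2 as deposited and 3 after adjustment passed the 5 FPKM filter only through *Tfeb* flox/flox, where they were high, so these counts support no statement on the list. The lower genes included the RNA sensor *Oas1a* (12.1 against 3.96), the nucleic acid sensor *Zbp1* (7.13 against 1.42), the immunoproteasome subunit *Psmb8* (23.2 against 10.4) and the transcription factor *Irf7* (36.3 against 20.1). *Irgm1*, an interferon-induced GTPase active in autophagy, was at 9.07 against 7.47, and *Irf1* lay the other way at 18.1 against 28.4. The summed immune markers given above moved in the same direction (51.1 to 23.4), with the T cell gene *Cd3g* at 7.09 against 2.01 and the Fc receptor chain *Fcer1g* at 9.44 against 3.02, and their part in these values was not tested.

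Stem cell and Wnt target genes were mostly low. *Lgr5* was at 1.99 in *Tfeb* flox/flox against 1.30 in *Tfeb* ΔIEC and *Smoc2* at 6.14 against 9.01. Of 10 used, 3 were higher past 2-fold (30%, beside 11.4% of all genes: the receptor ligase *Rnf43* at 1.47 against 6.89, *Prom1* at 17.8 against 42.6 and *Ets2* at 10.5 against 23.5), and 1 after adjustment (*Rnf43*), near the 9.69% of all genes. *Rnf43* passed the filter only through *Tfeb* ΔIEC, where it was high. Proliferation genes (24 used) had a median of -0.092 and -0.37 after adjustment. The spindle protein *Nusap1* was lower at 10.3 against 1.96, the helicase subunit *Mcm3* was at 3.17 against 9.58 and the division marker *Mki67* was at 0.903 against 1.47, under the threshold.

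Of 23 cell junction genes used, 6 were higher and 1 lower as deposited (26.1% and 4.35%, beside 11.4% and 18.4% of all genes), and 4 and 1 after adjustment (17.4% and 4.35%, beside 9.69% and 11.7%). Of those higher as deposited 4, and all 4 higher after adjustment, passed the 5 FPKM filter only through *Tfeb* ΔIEC, where they were high, so neither number supports a statement on the list. Those higher after adjustment were *Cldn8*, the tight junction protein *Ocln* (4.62 against 18.3), p120 catenin *Ctnnd1* (4.44 against 20.3) and the desmosomal cadherin *Dsc2* (3.94 against 17.9). The scaffold *Tjp1*, which has a transcript of 6576 nt and so is not a short gene, was lower at 6.55 against 1.41, and passed the filter only through *Tfeb* flox/flox. E-cadherin (*Cdh1*) was at 38.5 against 109, with a length-adjusted difference of 0.89.

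Of the metabolic and stress lists, few members left the range of the other genes. Fatty acid oxidation and ketogenesis (30 used) had no gene past 2-fold after adjustment. As deposited *Cpt1a*, the gate of fatty acids into mitochondria, was higher at 7.59 against 20.2 and the lipid-sensing receptor *Pparg* at 15.6 against 36.2. Glycolysis and the citric acid cycle (34 used) had a median of 0.077 after adjustment, with *Hk1* higher at 8.49 against 29.2. The unfolded protein response (18 used) had a median of 0.43 and 0.28, with no gene past 2-fold after adjustment and its factor *Xbp1* at 44.3 against 50.8. Heat shock (10 used) and immediate early genes (11 used) had adjusted medians of 0.10 and -0.35. *Hsp90aa1* was lower after adjustment at 41 against 25.4, and *Socs3*, a brake on cytokine signalling, was at 10.2 and listed at 0 in *Tfeb* ΔIEC. Keratins and brush border genes (22 used) had an adjusted median of 0.073, with the motor *Myo1a* at 27.8 against 67.6 and the actin bundler *Pls1* at 35.1 against 20.8. Genes often used to scale other assays were not constant: *Hprt* was at 78.5 against 142, *B2m* at 1664 against 572, *Actb* at 4805 against 3358 and *Gapdh* at 113 against 102.

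The largest length-adjusted differences were read from 1687 protein-coding genes with a median transcript of at least 900 nt, a value above 0 in both genotypes and a locus of their own. Of these 168 (9.96%) were lower and 107 (6.34%) higher past 2-fold. The lower gene with the largest value was *Txnrd3*, a selenocysteine-containing thioredoxin reductase (chr6:89643988-89675529), at 513 in *Tfeb* flox/flox against 0.814 in *Tfeb* ΔIEC. It was followed by *Akr1c19*, an aldo-keto reductase, at 307 against 24.9, and by *Erlin1*, an organizer of endoplasmic reticulum lipid domains, at 51.6 against 4.59. Several regulators came next at lower levels. The zinc finger protein *Zfp217* was at 7.46 against 0.494, the glucocorticoid receptor *Nr3c1* at 8.77 against 0.917 and the histone demethylase *Kdm2a* at 10.1 against 1.73. The DNA damage recognition protein *Xpc* was at 8.45 against 1.12, *2010109I03Rik* at 10.3 against 0.936, and the sugar transporter *Slc2a10* at 5.23 against 0.683. *Aqp8* completes the 10, and their length-adjusted differences ran from -8.60 to -2.48. All but *Akr1c19* and *Aqp8* passed the 5 FPKM filter only through *Tfeb* flox/flox, where they were high. *Txnrd3*, *Erlin1* and *Aqp8* stood the opposite way on Day 4, as given below.

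The 10 higher genes had length-adjusted differences between 2.12 and 3.64, and in *Tfeb* flox/flox each was under 2 FPKM. After *Capn9*, the caspase-8 regulator *Cflar* was at 0.264 in *Tfeb* flox/flox against 12.9 in *Tfeb* ΔIEC. The complex I assembly factor *Ndufaf6* was at 0.926 against 10.5, and *Hps5*, which is needed to form lysosome-related organelles, was at 0.0974 against 9.10. The glucosamine-6-phosphate deaminase *Gnpda1* was at 0.779 against 8.93, the checkpoint kinase *Chek2* at 0.839 against 9.61 and the chromatin remodelling subunit *Vps72* at 1.90 against 11.7. *Tsc22d4* was at 1.87 against 9.26, the phosphoinositide phosphatase *Mtmr6*, which acts on endosomal lipids, at 0.333 against 6.99 and the sugar-phosphate exchanger *Slc37a3* at 1.74 against 13.3. None of these 20 genes except *Aqp8* and *Capn9* was in a lineage list, and *Ndufaf6* is not a subunit counted above.

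**Figure D5:**
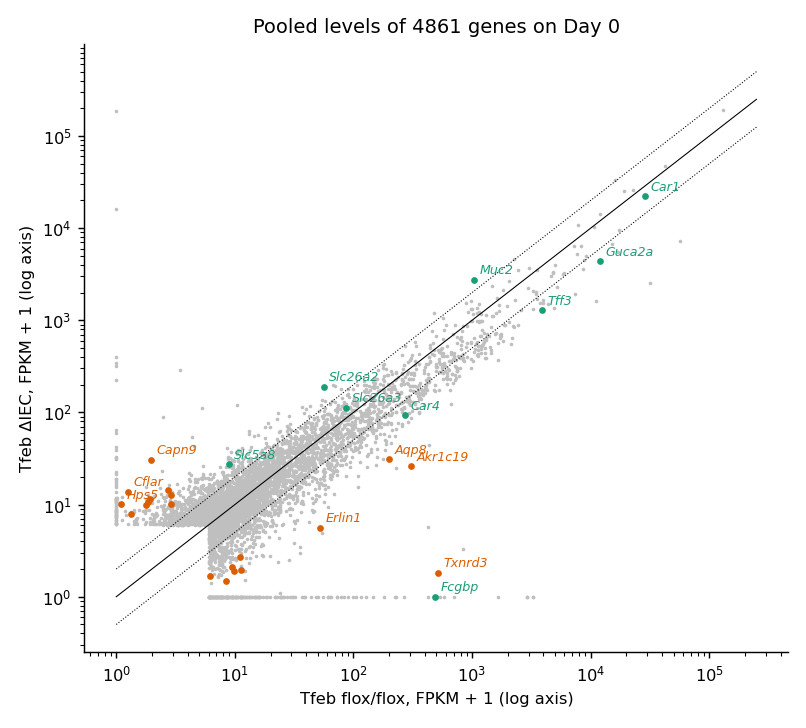
Pooled FPKM + 1 of 4861 genes on Day 0 (both axes log), *Tfeb* flox/flox across and *Tfeb* ΔIEC up, with the solid line at equality and dotted lines at 2-fold. Orange marks the 20 genes with the largest length-adjusted differences, such as *Txnrd3* (513 against 0.814) and *Capn9* (0.972 against 29.7), and green marks lineage genes; points along the axes at 1 are genes listed at 0.

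Without regard to length, the extremes were all short RNAs. The 5 genes with the largest decrease as deposited, which are also the 5 with the highest FPKM among those listed at 0 in *Tfeb* ΔIEC, were the mitochondrial tRNA genes *mt-Tf* (3291 in *Tfeb* flox/flox), *mt-Tp* (3242) and *mt-Tm* (2879), the small nucleolar RNA *Snord34* (2931) and the miRNA gene *Gm24865* (1653). The 5 at the other end were listed at 0 in *Tfeb* flox/flox: *Igkj2* (187077 in *Tfeb* ΔIEC), *Gm23388* (16072), *Gm24406* (403), *AC147560.1* (342) and *Gm22362* (316). Their transcripts measured from 39 to 134 nt. FPKM divides by length, so few fragments give such genes high values. Among protein-coding genes with a median transcript of at least 900 nt and a locus of their own, only 4 were listed at 0 in *Tfeb* ΔIEC (*Fcgbp*, *Apoa1*, *Socs3* and *Ndufb4*) and 1 in *Tfeb* flox/flox (*Sh3bgr*, at 8.80 in *Tfeb* ΔIEC); these were named after their values were seen.

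The table labelled Day 4, from 4 other animals given DSS per the labels, shows which of the Day 0 differences had the same direction there. That table was almost the same as the one labelled Day 11: over the genes used, the Spearman correlation of FPKM between them was 0.997 in controls and 0.995 in *Tfeb* ΔIEC, against 0.771 and 0.847 between Day 0 and Day 4. Which time it represents cannot be told apart, and it is used as 1 further pair of pools. It was scaled separately from Day 0, so levels are not compared across days. Of 388 genes lower after adjustment on Day 0 and used on Day 4, 305 (78.6%) were also below 0 on Day 4, where 47.8% of all 3992 genes used on both days were. Past 2-fold, 215 were lower and 35 higher on Day 4. Of 326 higher genes, 245 (75.2%) were above 0, against 51.9% of all, and 174 were higher and 35 lower past 2-fold. On Day 4 *Car4* was at 232 against 147, *Cdkn1a* at 259 against 76.8, *Saa1* at 452 against 77, *Fabp6* at 24 against 2.65 and *Apoa1* at 4.99 against 1.89 (*Tfeb* flox/flox against *Tfeb* ΔIEC), all lower as on Day 0. *Muc2* (645 against 1894) and *Slc26a2* (13 against 266) were higher, as on Day 0. *Asah1* was at 6.62 against 59.7, higher again. These levels are as deposited. After adjustment *Car4* (-0.53) and *Saa1* (-0.72) were within 2-fold on Day 4. *Apoa1* was under 5 FPKM in both genotypes there and is not among the genes counted. Other genes stood the opposite way: the class II genes *H2-Aa* (12.1 against 23.7), *H2-Ab1* (19.7 against 31.1) and *Cd74* (20.5 against 165) and the interferon-response factor *Irf7* (15.2 against 37.9) were higher in *Tfeb* ΔIEC on Day 4. *Oas1a* (34.9 against 13.1), *Zbp1* (44.8 against 11.6) and *Psmb8* (143 against 57.1) were lower, as on Day 0. *Aqp8* (25.3 against 69.3), *Tjp1* (0.363 against 8.84) and *Tmem55b* (listed at 0 in *Tfeb* flox/flox and at 2.39) were higher on Day 4 and lower on Day 0. *Tfeb* was at 1.08 and listed at 0. Both days shared the mouse line, the isolation and the library method.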

How the data were processed

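RNA of colon epithelial cells was amplified by a Smart-seq2 variant and sequenced with paired ends on a MiSeq, 2 animals per genotype on Day 0. The authors aligned reads to mm10 with TopHat2 (2.0.14) and Bowtie and ran Cuffdiff (2.1.1), and the deposited table gives 1 FPKM value per gene and genotype. Its other columns hold the authors' fold changes, test statistics, p-values and significance marks, which were not used. The Cuffdiff status was read only to find failed estimates. Groups followed the labels. Genes with at least 5 FPKM in either genotype were compared as log2(FPKM + 1), with a pseudocount of 1. Lengths and GC content came from GENCODE (GRCm38, the assembly of mm10), matched for 4853 of 4861 genes. Length adjustment subtracted the running median of the 150 genes on either side in length, for genes of at least 200 nt. No test was possible with 1 pooled value per genotype. Lists and members were chosen with earlier results of these data known. Named genes were the MiT/TFE factors, genes the study names, defining genes and largest changes of each list, the 10 lower and 10 higher genes with the largest length-adjusted change among long protein-coding genes alone in their locus, the 5 lower and 5 higher with the largest change as deposited, and the 5 highest of those listed at 0 in a genotype. Alternatives changed the pseudocount, filter, scaling, gene types, length measure, window, fold and motif. Some genes are not reported here. Scripts were checked on simulated data. The scripts ran in Python 3.11.15 (pandas 2.3.3, numpy 2.4.6; figures with matplotlib 3.10.9, statistics with scipy 1.17.1).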

Additional observations from a re-analysis of the deposited data

Results flagged for a closer look

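Of the reported genes, in the lists or among the largest changes, 15 differed past 2-fold on Day 0 and past 2-fold in the opposite direction in the table labelled Day 4, which was almost the same as that of Day 11. The difference between days was not tested, since each genotype and day has 1 pooled value. *Txnrd3* was lower on Day 0 (513 in *Tfeb* flox/flox against 0.814 in *Tfeb* ΔIEC), whereas the Day 4 control value was 0 with 397 in *Tfeb* ΔIEC, a log2 difference of 8.64 that depends on the pseudocount. *Erlin1* was lower on Day 0 (51.6 against 4.59) and higher on Day 4 (0.545 against 28, log2 difference 4.23). *Aqp8*, the colonocyte water channel, was lower on Day 0 (198 against 30.1) and higher on Day 4 (25.3 against 69.3, 1.42). In the other direction, *Ndufaf6* (0.926 against 10.5 on Day 0 and 4.62 against 1.43 on Day 4) had a Day 4 difference of -1.21, with both Day 4 values under 5 FPKM. *Vps72* (1.90 against 11.7 and 10.7 against 1.84) had -2.05, and *Tsc22d4* (1.87 against 9.26 and 5.08 against 1.83) had -1.10. *Pla2g2a* was higher on Day 0 (4.27 against 111) and lower on Day 4 (116 against 10.2, -3.38). *Rpl24*, a ribosomal protein, was higher on Day 0 (0.0187 against 10.7) and lower on Day 4 (110.2 against 9.77, -3.37). *Tjp1*, the tight junction scaffold, was lower on Day 0 (6.55 against 1.41) and higher on Day 4 (0.363 against 8.84, 2.85). *Tmem55b* (10.6 against 4.11 on Day 0) was at 0 and 2.39 on Day 4, a difference of 1.76 that depends on the pseudocount. The carboxylesterases *Ces2a* (9.80 against 32.4 on Day 4, 1.63) and *Ces2e* (45.1 against 93.2, 1.03) and the Fc receptor chain *Fcer1g* (5.91 against 14.6, 1.17) were lower on Day 0 and higher on Day 4. The ion transport regulator *Fxyd4* (1.44 against 5.38 and 7.56 against 1.61) and the mitochondrial ribosomal protein *Mrps10* (1.60 against 6.02 and 6.79 against 1.21) were higher on Day 0 and lower on Day 4, at -1.71 and -1.82. These differences are as deposited. After length adjustment of the Day 4 values *Tsc22d4* (-0.29), *Fxyd4* (0.018), *Ces2a* (0.91) and *Ces2e* (0.043) were within 2-fold on Day 4, and *Fcer1g* was within 2-fold on Day 0 (-0.53). *Ndufaf6* and *Tmem55b*, under 5 FPKM on Day 4, were not adjusted there.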

How the results depend on the processing

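No paired analysis was possible because each genotype has 1 pooled value per gene, and for the same reason no animal could be left out. Over 16 alternatives (3 chosen after seeing the data: the mean filter, single-gene loci and leaving out genes listed at 0), 1301 values were recomputed. None that passed 2-fold as reported changed sign, but many of them could not. Counts have no sign, and no pseudocount or filter can turn the sign of a single gene's difference as deposited. The lack of sign changes is therefore no measure of how firm the values are. Counts of genes lower and higher moved by over 1.5 times under some. With a pseudocount of 5 FPKM, 251 were higher as deposited, and 232 lower and 262 higher after length adjustment. From 1 FPKM upward, 1610 were lower and 1352 higher as deposited and 1118 and 1130 after adjustment. From 10 FPKM, 300 were higher as deposited, and 314 and 253 lower and higher after adjustment. Without a filter, the counts were 1610 and 1352 as deposited and 1027 and 1377 after adjustment. Among protein-coding genes alone, 535 were lower as deposited and 308 higher after adjustment. Past 4-fold there were 242 lower and 138 higher, and 141 and 120 after adjustment. With a mean of at least 5 FPKM, 361 were lower after adjustment. Among loci that hold no other gene, 507 were lower and 259 higher, and 290 and 232 after adjustment. The Spearman correlation with length was 0.33 from 1 FPKM, 0.55 from 10 FPKM and 0.26 with no filter. Adjusted medians of the large ribosomal subunit and complex I were -0.29 and -0.67 from 1 FPKM and -0.31 and -0.76 with no filter. Scaling by the FPKM sum gave a median over all genes of -0.030. The cause of these shifts was not tested, beyond the change in the genes entered.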

Other observations

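Selenoproteins, enzymes that carry selenocysteine and often handle peroxides, differed in both directions. Of 24 listed 14 were used, and 3 were lower (21.4%, beside 18.4% of all genes as deposited and 11.7% after adjustment) and 1 higher (7.14%, beside 11.4% and 9.69%) past 2-fold both as deposited and after length adjustment, with medians of -0.65 and -0.055. Of the lower genes 2 (*Selenoh* and *Txnrd3*), and the higher one, passed the 5 FPKM filter only through the genotype where they were high, so the counts support no statement on the list. *Selenoh* was at 840.3 in *Tfeb* flox/flox against 2.28 in *Tfeb* ΔIEC and the mitochondrial thioredoxin reductase *Txnrd2* at 773 against 246. The phospholipid-forming *Ept1* (*Selenoi*) was higher at 3.53 against 41.7. The cytosolic reductase *Txnrd1* was listed at 0 in both genotypes, and the glutathione peroxidase *Gpx2* was at 1148 against 974.

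Genes of xenobiotic and bile acid metabolism differed in both directions. Of 41 used, 5 were lower and 2 higher after adjustment (12.2% and 4.88%, beside 11.7% and 9.69% of all genes). Beside *Akr1c19*, the carboxylesterases *Ces2a* (46.2 against 21.4) and *Ces2e* (91.6 against 42.7), the glutathione transferase *Mgst3* (686 against 207) and the hydroxylase *Cyp4f14* (23.6 against 12.5) were lower. The aldo-keto reductase *Akr1c14* (13.4 against 54.3) and *Nr1h4* (3.32 against 9.29), the bile acid receptor FXR, were higher. Aldo-keto reductases and carboxylesterases form families of near copies, so their values are uncertain.

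Translation factors (33 used) had an adjusted median of 0.010. As deposited 3 were lower and 2 higher past 2-fold (9.09% and 6.06%, beside 18.4% and 11.4% of all genes). After adjustment 4 were lower and 2 higher (12.1% and 6.06%, beside 11.7% and 9.69%). Of the lower genes 2 passed the 5 FPKM filter only through *Tfeb* flox/flox, where they were high. As deposited *Eif4b* (7.77 against 32.2) and *Eif4g2* (9.67 against 37.7) were higher. *Eif4ebp1*, the translation brake that mTORC1 releases, was lower (6.59 against 1.53). Proteasome subunits (28 used) had an adjusted median of -0.15, with *Psmb3* lower (11.1 against 0.882). Of 25 genes the study names, 13 were used, with *Apoa1* lower past 2-fold after adjustment. Some of these were chosen by the study on these samples and are not independent evidence. The 137 genes that reached 1000 FPKM in either genotype had a median of -0.92 as deposited, with 66 lower and 6 higher past 2-fold (beside 18.4% and 11.4% of all genes), in a set chosen by its high value in either genotype, and of -0.24 after adjustment.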
